A study of Mus musculus with 12 samples.

Results

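Described here are 37 genes of cholesterol and fatty acid synthesis and of the SREBP and LXR pathways that control them, among 24421 genes in the deposited table. They were listed by name, with earlier results of these data known, and all 37 were in the table. They comprised 18 enzymes of sterol synthesis, 5 enzymes of fatty acid synthesis, 5 genes of the SREBP machinery, 5 genes of the LXR and efflux arm, and 4 genes of sterol transport and storage. Gene expression was measured by RNA sequencing of thymocytes sorted from C57BL/6 mouse embryos. All embryos lacked Rag1, a recombinase gene without which no T cell receptor is assembled, and all carried Bcl6 fl/fl, that is, Bcl6 alleles flanked by loxP sites. Knockout (KO) embryos were LckCre+, with Cre driven by the promoter of the T lineage kinase Lck, and control embryos were LckCre-. CD25-positive thymocytes came from unstimulated thymi. Immature single-positive (ISP) cells, which carry CD8 without CD4, and double-positive (DP) cells, which carry both, were sorted after thymi had been cultured 2 days in the presence of anti-CD3 antibody at 1 µg/ml, which replaces the missing receptor signal. There were 2 libraries in each of the 6 groups, 12 in all. Loss of Bcl6 and the presence of Cre cannot be told apart in this design, and for ISP and DP against CD25 neither can the stage and the stimulated culture. Most labels give the embryonic day as E16.5, but the protocol for the treatment says E17.5. Nothing in the labels ties the libraries of 1 group to separate embryos or cultures. The p-values therefore measure only the spread among these samples, part of which may be technical.

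Cholesterol is built from acetyl-CoA through mevalonate, farnesyl diphosphate and squalene, and proliferating lymphocytes need it for new membrane. The genes of its synthesis, and several of fatty acid synthesis, are switched on by the SREBP transcription factors, which Scap escorts out of the endoplasmic reticulum and the Insig proteins hold back when sterol is plentiful. Excess cholesterol in turn gives oxysterols that activate the LXR receptors, whose targets export sterol from the cell (Abca1, Abcg1) or remove lipoprotein receptors from its surface (Mylip).

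The sequence upstream of the start site was available from RefSeq (GRCm38.p6) for 29 of the 37 genes. Fdft1, Stard4, Scd2, Sqle, Abcg1, Npc1, Fdps and Scd1 had no entry. The 250 bases before the start are printed 5′ to 3′ on the strand of the gene for 4 enzymes. Hmgcs1 is shown because it makes HMG-CoA at the head of the pathway. Mvd, Cyp51 and Ebp are shown because their difference between genotypes was itself larger in DP than in ISP. Capitals mark CCAAT boxes on either strand (CCAAT or ATTGG) and the classical sterol regulatory element letters TCACNCCAC. The Hmgcs1 window lies at chr13:119690101-119690350 on the plus strand, and the Mvd window at chr8:122443423-122443672, the Cyp51 window at chr5:4104698-4104947 and the Ebp window at chrX:8193513-8193762 on the minus strand. In the GENCODE M21 annotation of GRCm38 the protein-coding genes followed most closely here span chr13:119690379-119708260 (Hmgcs1), chr8:122433601-122443422 (Mvd), chr5:4081145-4104746 (Cyp51), chrX:8185329-8193512 (Ebp), chr3:89093588-89101959 (Fdps), chr11:120805846-120824547 (Fasn), chr17:31057675-31117988 (Abcg1), chr13:45389742-45412022 (Mylip) and chr1:156424525-156474331 (Soat1).
Hmgcs1: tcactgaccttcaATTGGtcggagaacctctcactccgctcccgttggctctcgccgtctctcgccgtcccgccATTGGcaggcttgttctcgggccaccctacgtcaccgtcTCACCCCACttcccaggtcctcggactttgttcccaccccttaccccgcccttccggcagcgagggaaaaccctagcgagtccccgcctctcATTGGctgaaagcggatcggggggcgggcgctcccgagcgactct
Mvd: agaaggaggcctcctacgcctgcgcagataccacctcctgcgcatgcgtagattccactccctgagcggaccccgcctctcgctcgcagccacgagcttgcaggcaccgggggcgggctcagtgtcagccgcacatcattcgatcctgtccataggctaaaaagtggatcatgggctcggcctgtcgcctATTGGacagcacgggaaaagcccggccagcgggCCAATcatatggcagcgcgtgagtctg
Cyp51: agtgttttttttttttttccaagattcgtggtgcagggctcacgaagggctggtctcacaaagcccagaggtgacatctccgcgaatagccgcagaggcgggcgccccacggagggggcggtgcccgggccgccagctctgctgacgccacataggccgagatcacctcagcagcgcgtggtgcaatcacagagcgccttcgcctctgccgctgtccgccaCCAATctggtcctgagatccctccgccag
Ebp: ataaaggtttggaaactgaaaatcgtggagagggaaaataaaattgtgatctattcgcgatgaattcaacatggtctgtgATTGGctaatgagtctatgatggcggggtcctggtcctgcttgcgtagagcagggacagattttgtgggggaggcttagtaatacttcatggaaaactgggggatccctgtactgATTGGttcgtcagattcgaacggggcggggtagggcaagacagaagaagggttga

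Both strands of every window of this length were searched for 5 motifs, none of which holds another in its fixed letters. A CCAAT box was in 14 of the 15 sterol synthesis genes with an entry, in 1 of 3 fatty acid synthesis genes and in 7 of 11 other members, against 40.8% of the 8512 expressed genes with an entry and 37.5% of all 27025 genes. The GC box GGGCGG was in 14 of the 15 sterol genes, against 64.3% of expressed genes. The letters TCACNCCAC were in 1 of the 15, Hmgcs1, at 137 bases before the start, against 1.20% of expressed genes. The E-box CACGTG was in 3 of the 15, against 10.1% of expressed genes, and the LXR element, a repeat of AGGTCA with a spacer, was in 0 of the 29 windows of members, Abcg1 not among them, and in 0 of the 8512 expressed genes. A match describes letters in a window and not a bound site.

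Each library held between 9658167 and 14228673 reads, recovered from the deposited values, and 10241 to 10568 genes reached 1 RPKM. The unit is reads scaled to gene length and by a factor per library, which was not its plain read depth. In 6 of the 8 libraries from stimulated thymi, the title and the sequencing library name disagree on population or genotype. By library name, all 4 libraries titled DP were KO and all 4 titled ISP were control. The developmental stage label also differed from the title in 5 of these libraries. Groups here follow the titles, the source names and the genotype labels. Values of Cd4 ran from 190.6 to 344.1 RPKM in libraries with a DP title and from 13.9 to 20.5 RPKM in those with an ISP title, without overlap. Within DP, Cd4 was at 249.5 and 190.6 RPKM in KO and 344.1 and 338.0 RPKM in control libraries. Cd8a was at 773.8 to 872.8 RPKM in DP, 230.4 to 301.8 RPKM in ISP and 1.29 to 2.16 RPKM in CD25 libraries, and Il2ra, which encodes CD25, was at 537.6 to 603.3 RPKM in CD25 libraries and at 14.5 to 44.7 RPKM in all others. The population titles were thus matched by these genes. Genotype had no such check, since the value of Bcl6 covers the whole gene and not its loxP-flanked part: Bcl6 was at 87.7 and 111.3 RPKM in DP KO and 72.5 and 70.0 RPKM in DP control libraries. The DP and ISP comparisons therefore rest on the titles, because leaving out the 6 libraries would keep only DP KO library 1 and ISP control library 2. The comparison of all anti-CD3 libraries with CD25, and of genotypes in CD25, uses groups that titles and library names give alike.

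The 37 genes spanned a wide range of levels per length. Scd2, a desaturase that makes monounsaturated fatty acids, averaged 339.3 RPKM in CD25, 278.4 RPKM in ISP and 274.7 RPKM in DP, and the farnesyl diphosphate synthase gene Fdps averaged 279.6, 306.4 and 155.7 RPKM in the same order. Fdps and Scd2 held the highest mean levels of the 37 in each population. In DP libraries Srebf1 averaged 57.8 ± 4.08 RPKM and Srebf2 66.3 ± 3.84 RPKM (SD, n = 4 each). LXR beta (Nr1h2) was at 32.9 to 60.6 RPKM in every library, whereas LXR alpha (Nr1h3) stayed between 0.0901 and 0.746 RPKM, with 2 to 16 reads per library. Nr1h3 failed the filter of 1 RPKM in at least 2 libraries and was not tested, and the other 36 genes passed it. Abca1 passed only through the 2 DP control libraries, so a difference between DP control and the rest is in part fixed by the filter. Counts and medians of members for comparisons that involve DP libraries leave it out, and its values are given apart.

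**Figure D1:**
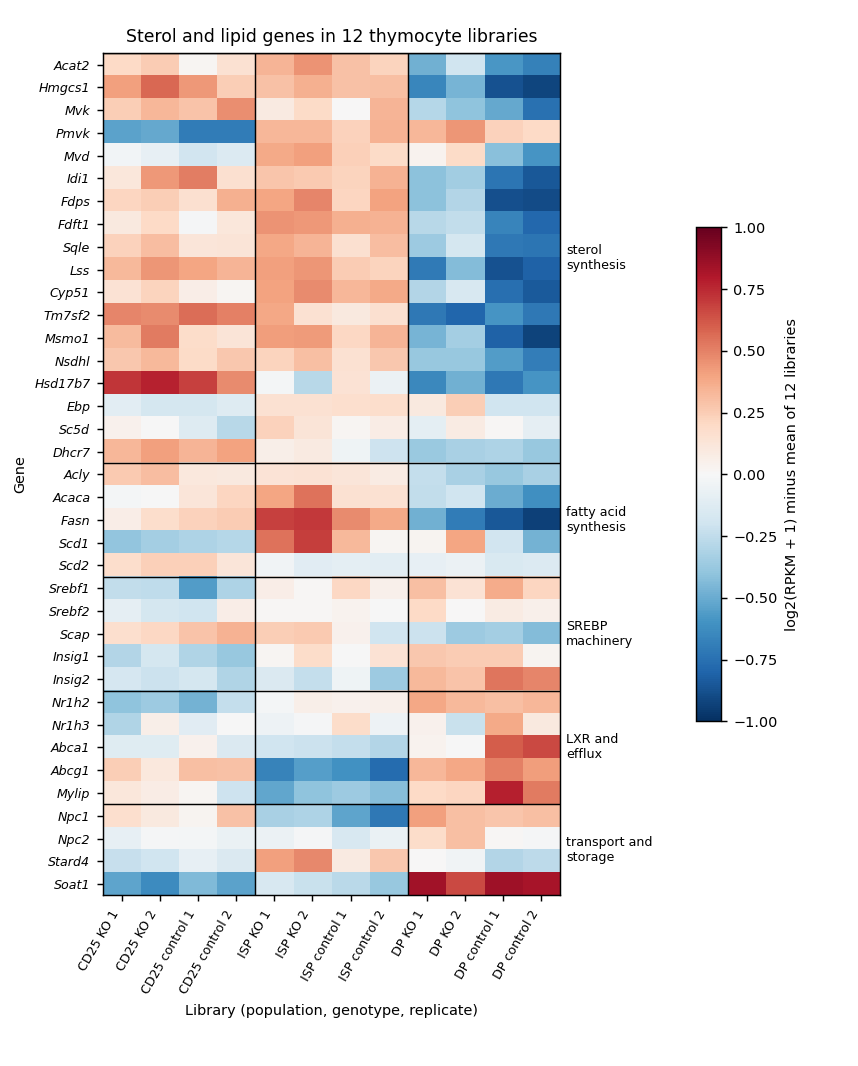
Each row is 1 of the 37 genes and each column 1 of the 12 libraries. Colour gives log2(RPKM + 1) minus the mean of the gene over the 12 libraries, and values beyond 1 in either direction take the end colour. Most sterol synthesis genes are blue in the 4 DP columns, paler in DP KO than in DP control, while Abcg1, Mylip, Insig2, Npc1 and Soat1 are red there.

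Nearly the whole sterol synthesis pathway was lower in DP cells than in ISP cells. In the comparison of DP with ISP, 17 of the 18 enzymes were lower and none was higher (limma on log2(RPKM + 1), Benjamini-Hochberg adjusted p under 0.05), where 35.0% of the 11303 genes tested were lower, 35.6% higher and 70.6% called in either direction. The median log2 change of the 18 enzymes was -0.80, beside 0.01 for all genes tested. In these bulk libraries, fewer cells of a type and less RNA per cell cannot be told apart.

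The fall ran through every segment of the pathway. Hmgcs1 was at 66.1 and 75.5 RPKM in DP KO and 56.9 and 55.0 RPKM in DP control libraries, against 128.6 and 134.1 RPKM in ISP KO and 128.1 and 129.3 RPKM in ISP control libraries. All 4 DP libraries lay below all 4 ISP libraries, and the mean was 2.05-fold lower in DP (log2 change -1.04 ± 0.06 SE, adjusted p = 1.25e-08). Fdps, whose product feeds both sterols and protein prenylation, was at 176.7 and 192.4 RPKM in DP KO and 127.7 and 126.2 RPKM in DP control libraries, against 309.8, 330.8, 273.5 and 311.5 RPKM in the 4 ISP libraries. Again no DP library reached an ISP library, and the log2 change was -0.99 ± 0.06 (adjusted p = 1.34e-08). Further down, the squalene synthase gene Fdft1 changed by -0.89 ± 0.05, the squalene epoxidase gene Sqle by -0.79 ± 0.05 and the lanosterol synthase gene Lss by -1.04 ± 0.06. Cyp51, the lanosterol demethylase, was at 43.9 and 48.2 RPKM in DP KO and 31.6 and 29.7 RPKM in DP control libraries, against 71.7, 75.4, 68.3 and 70.4 RPKM in ISP libraries. The 2 groups did not overlap, and the log2 change was -0.91 ± 0.05 (adjusted p = 6e-09).

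A few enzymes departed from the rest. Pmvk, the phosphomevalonate kinase, did not pass the test, with 45.1 ± 3.59 RPKM in DP and 45.4 ± 1.69 RPKM in ISP libraries (SD, n = 4 each; log2 change -0.01 ± 0.05, adjusted p = 0.858). The last enzymes of the pathway had smaller estimates: the sterol isomerase gene Ebp changed by -0.18 ± 0.05, the desaturase gene Sc5d by -0.14 ± 0.05 and the reductase gene Dhcr7 by -0.32 ± 0.05. DP and ISP libraries overlapped for Ebp and Sc5d, and the call of Sc5d (adjusted p = 0.0407) was lost when single libraries were left out.

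The fatty acid enzymes followed in part. In DP against ISP, 4 of the 5 fell and none was higher, where 35.0% of all genes were lower and 35.6% higher. Fasn, the fatty acid synthase, was at 14.3 and 12.1 RPKM in DP KO and 10.8 and 10.1 RPKM in DP control libraries, against 33.1, 33.7, 28.6 and 26.7 RPKM in ISP libraries. Every DP library was below every ISP library, with a 2.58-fold lower mean (log2 change -1.30 ± 0.06, adjusted p = 2.47e-09). Acaca, which makes malonyl-CoA, changed by -0.70 ± 0.08, Scd1 by -0.46 ± 0.10 and Acly, which supplies cytosolic acetyl-CoA from citrate, by -0.44 ± 0.04. Scd2 did not pass the test (274.7 ± 8.201 RPKM in DP, 278.4 ± 6.94 RPKM in ISP libraries, SD, n = 4 each).

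**Figure D2:**
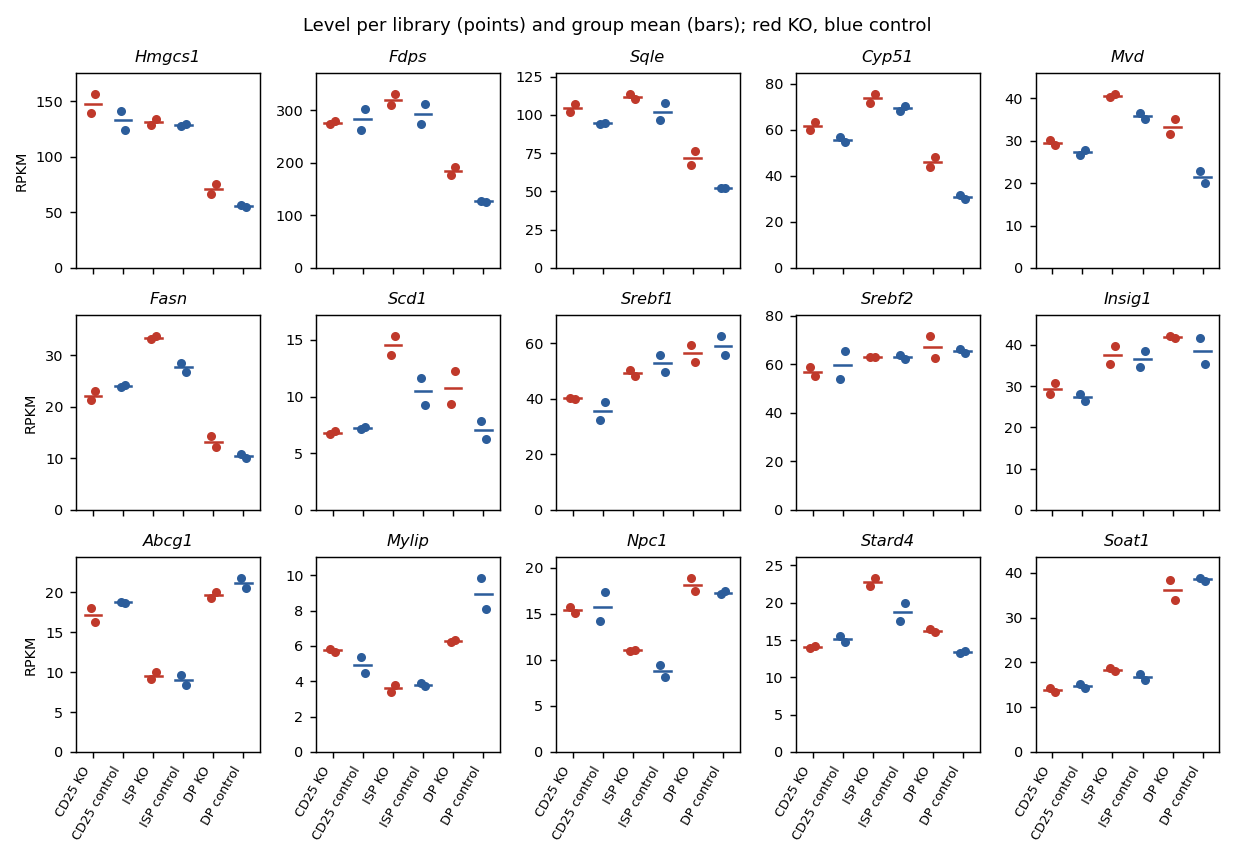
RPKM of 15 members in each library (points) with the mean of each group (bars), KO in red left of control in blue, for CD25, ISP and DP. Hmgcs1, Fdps, Sqle, Cyp51 and Fasn drop in DP, where the KO points lie above the control points, while Abcg1, Mylip, Npc1 and Soat1 are higher in DP than in ISP.

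Of the 5 genes of the SREBP machinery, 2 were higher in DP, 1 lower and 2 not called, beside 35.6% of all genes higher and 35.0% lower. On the common-sum scale, in which each library is rescaled to the same sum, Srebf2 (0.25) and Insig1 (0.29) were called too. That gave 4 higher and 1 lower, where 5534 of all 12275 genes tested were higher and 3191 lower. Srebf2, the main driver of sterol genes, was at 71.6 and 62.6 RPKM in DP KO and 66.1 and 64.7 RPKM in DP control libraries, against 63.05, 62.9, 63.8 and 62.2 RPKM in ISP libraries. These ranges overlapped, and the test was not passed (log2 change 0.07 ± 0.06, adjusted p = 0.330). Srebf1 was slightly higher in DP (0.17 ± 0.07, adjusted p = 0.0337), with overlapping libraries and a call that did not survive every omission of a library. Scap was lower (-0.42 ± 0.06, adjusted p = 5.56e-05). Of the Insig genes, Insig2 was at 17.4 and 16.9 RPKM in DP KO and 20.3 and 19.7 RPKM in DP control libraries, against 12.3, 11.5, 13.2 and 10.5 RPKM in ISP libraries. It was higher in every DP library (0.61 ± 0.07, adjusted p = 9.17e-06), while Insig1, a gene that SREBP itself induces, did not pass the test (0.11 ± 0.06, adjusted p = 0.129).

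Of the LXR and efflux genes, Abcg1, Mylip and Nr1h2 were higher in DP than in ISP, with a median log2 change of 0.86. Of all genes tested, 35.6% were higher. Abcg1, which exports cholesterol to lipoproteins, was at 19.3 and 20.1 RPKM in DP KO and 21.8 and 20.5 RPKM in DP control libraries, against 9.13, 9.99, 9.595 and 8.42 RPKM in ISP libraries. No library overlapped, and the mean was 2.20-fold higher in DP (log2 change 1.06 ± 0.06, adjusted p = 1.76e-08). Mylip, the ubiquitin ligase, was at 6.25 and 6.35 RPKM in DP KO and 9.84 and 8.07 RPKM in DP control libraries, against 3.398, 3.78, 3.90 and 3.71 RPKM in ISP libraries. It too was higher in every DP library (0.86 ± 0.08, adjusted p = 1.77e-06). Nr1h2 rose by 0.30 ± 0.05. Abca1, the other exporter and the gene left out of the counts, had 32 to 138 reads in DP and 10 to 21 reads in ISP libraries, without overlap (0.56 ± 0.11 on the log2(RPKM + 1) scale). With no filter on low values limma called it higher (adjusted p = 1.05e-05). With the filter, which Abca1 passed through DP control alone, the adjusted p was larger. It was 0.000758, and 0.00111 with a pseudocount of 0.1. Without either DP control library Abca1 was not tested.

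Among the genes of transport and storage, Soat1, which esterifies cholesterol for storage, was at 38.5 and 33.9 RPKM in DP KO and 38.8 and 38.2 RPKM in DP control libraries, against 18.8, 17.99, 17.3 and 16.0 RPKM in ISP libraries. The groups were apart, with a 2.13-fold higher mean in DP (log2 change 1.05 ± 0.06, adjusted p = 1.02e-08). Npc1, which releases cholesterol from lysosomes, rose by 0.79 ± 0.07 and its partner Npc2 by 0.20 ± 0.04. Stard4, a cytosolic sterol carrier, fell with the enzymes (-0.46 ± 0.06, adjusted p = 1.19e-05). In sum over the classes on the deposited scale, 21 of 23 synthesis enzymes were lower and none higher in DP. Of the 12 other members, 8 were higher and 2 lower. Of all genes tested, 35.0% were lower and 35.6% higher. The median log2 change was -0.74 for the enzymes and 0.25 for the others.

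**Figure D3:**
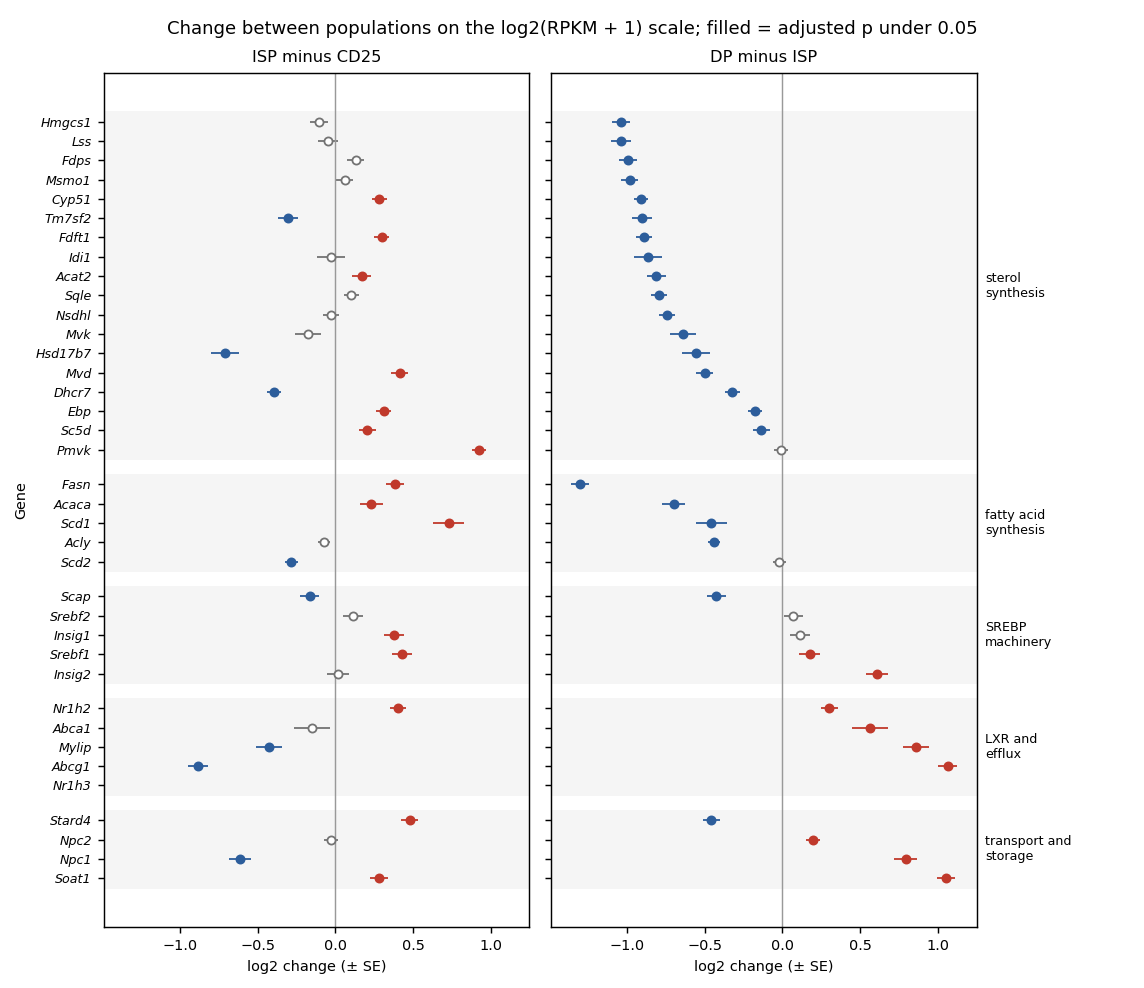
Log2 change ± SE of each tested member for ISP minus CD25 (left) and DP minus ISP (right), on the log2(RPKM + 1) scale, grouped by role. Filled points have an adjusted p under 0.05, red higher and blue lower. In the right panel the sterol enzymes lie between -1.04 and -0.01, and the LXR and efflux genes between 0.30 and 1.06.

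Genes of DNA replication moved in the same direction as the sterol enzymes. The 9 S phase genes listed for comparison (Mcm2 to Mcm7, Pcna, Rrm2 and Ccne1) summed to 1284.5 to 1922.3 RPKM in DP and 2735.3 to 2943.5 RPKM in ISP libraries, and all 9 were lower in DP. The 6 natural killer and innate lymphoid markers summed to 111.7 to 217.0 RPKM in DP and 1028.8 to 1243.8 RPKM in ISP libraries, and all 6 were lower in DP. Their part in the sterol result was not tested. With libraries grouped by library name in place of title, no member was called in either direction. With each library rescaled to a common sum, the median of all genes was 0.16 and 63.4% of the calls were higher, against 0.01 and 50.4% on the deposited scale. On the common-sum scale 15 sterol enzymes stayed lower and Pmvk was called higher (0.17), with a median of -0.63 for the 18. Of the 5 fatty acid enzymes, 4 stayed lower and Scd2 was called higher (0.16).

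The earlier step, from CD25 to ISP, was mixed. Of the 36 genes, 15 were higher and 8 lower in ISP than in CD25, against 33.1% and 30.9% of all genes tested, 63.9% together. Among the sterol enzymes 7 were higher, 3 lower and 8 not called, with a median log2 change of 0.08. On the common-sum scale 5 of the 18 were higher and 7 lower. Their median was then -0.04, beside -0.11 for all genes, so the direction of this class depended on the scale. Pmvk stood out with 46.1 and 46.0 RPKM in ISP KO and 42.9 and 46.5 RPKM in ISP control libraries, against 24.9, 25.3, 22.0 and 22.0 RPKM in CD25 libraries. Every ISP library was higher (0.92 ± 0.05, adjusted p = 6.78e-09), and Mvd also rose (0.41 ± 0.05). In the opposite direction Hsd17b7, a sterol ketoreductase, fell by 0.71 on the log2 scale and Dhcr7 fell by 0.39. Of the fatty acid enzymes Scd1 rose by 0.73 ± 0.10, Fasn by 0.38 ± 0.06 and Acaca by 0.23 ± 0.08, while Scd2 fell by 0.28.

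Abcg1, Npc1 and Mylip were lower at this step, while Npc2 (-0.03 ± 0.04) and Abca1 (-0.15 ± 0.11) were not called in limma. Abca1 had 10 to 21 reads in ISP and 24 to 54 reads in CD25 libraries, without overlap. A count-based limma-voom fit on the recovered reads called 3 of the 4 LXR and efflux genes tested lower, Abca1 among them, against 2 in limma. Abcg1 was at 9.13, 9.99, 9.595 and 8.42 RPKM in ISP libraries, against 18.1 and 16.3 RPKM in CD25 KO and 18.8 and 18.7 RPKM in CD25 control libraries. No library overlapped (log2 change -0.88 ± 0.06, adjusted p = 1.4e-07), with -0.61 ± 0.07 for Npc1 and -0.43 ± 0.08 for Mylip. The mean of Abcg1 was thus 17.97 RPKM in CD25, 9.28 RPKM in ISP and 20.4 RPKM in DP. Srebf1 (0.43 ± 0.07), Insig1 (0.37 ± 0.06), Nr1h2 (0.40 ± 0.05), Stard4 (0.48 ± 0.06) and Soat1 (0.28 ± 0.06) were higher in ISP than in CD25. S phase genes were higher in ISP too, 9 of 9. Of the 6 natural killer and innate lymphoid markers 5 were higher and 1 lower, with sums of 1028.8 to 1243.8 RPKM in ISP and 590.2 to 779.0 RPKM in CD25 libraries. The part of both lists in these values was not tested. On the common-sum scale 37.4% of all calls were higher, against 51.7% on the deposited scale, with a median of -0.11 over all genes.

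End to end, from CD25 to DP, 14 of the sterol enzymes were lower in DP and 2 higher, among 13 members higher and 19 lower of 35 (37.3% and 38.4% of all genes, 75.7% together). Hsd17b7 fell by 1.27 on the log2 scale, Tm7sf2, a sterol reductase, by 1.21 and Hmgcs1 by 1.14. Pmvk (0.91 ± 0.05) and Ebp (0.13 ± 0.05, adjusted p = 0.0193) were the 2 called higher. Ebp was at 36.4 and 40.3 RPKM in DP KO and 29.4 and 29.4 RPKM in DP control libraries, against 31.4 and 29.9 RPKM in CD25 KO and 29.9 and 30.9 RPKM in CD25 control libraries. Only the DP KO libraries lay above CD25, and the call of Ebp was lost in limma-voom (adjusted p = 0.0506) and without CD25 KO library 2, DP KO library 2 or CD25 control library 1 (adjusted p = 0.0724, 0.0742 and 0.0501). Soat1 rose by 1.33 ± 0.06, Nr1h2 by 0.70 ± 0.05, Insig2 by 0.62 ± 0.07 and Srebf1 by 0.60 ± 0.07. All anti-CD3 libraries against CD25, the comparison for which titles and library names agree, gave 14 sterol enzymes lower and 4 higher, among 20 members lower and 12 higher (36.5% and 35.6% of all genes, 72.1% together). These comparisons share their CD25 libraries with the step from CD25 to ISP. In DP and ISP libraries together, Epcam, which carries most of the thymic epithelium list, was lower than in CD25. That list summed to 14.5 to 21.9 RPKM in anti-CD3 libraries and 108.2 to 120.2 RPKM in CD25 libraries. Epcam alone was at 107.7 to 119.8 RPKM in CD25 libraries. Foxn1, Psmb11, Krt5 and Prss16, 4 of the 6 genes of the list, were under 1 RPKM in every library, so the sum follows Epcam and not the list. Its part was not tested.

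In DP cells, 11 of the 18 sterol synthesis enzymes were higher in KO than in control, none was lower and 7 were not called. On the common-sum scale 7 of the 18 were higher. Of the 35 members, 16 were higher and 1 lower in KO, against 14.1% of the 11303 genes tested higher, 7.78% lower and 21.9% in either direction. The 16 were 11 sterol enzymes, 3 of 5 fatty acid enzymes and 2 of 4 transport genes, and the lower gene was Mylip. None of the 5 genes of the SREBP machinery was called in limma or limma-voom. None of the 5 had an unadjusted p under 0.05, where 3996 of the 11303 genes did. The median log2 change of the sterol enzymes was 0.31, beside 0.00 for all genes tested.

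Mvd, the decarboxylase that makes isopentenyl diphosphate, was at 31.5 and 35.1 RPKM in DP KO and 22.8 and 20.1 RPKM in DP control libraries. Both KO libraries were above both control libraries, with a 1.55-fold higher mean (log2 change 0.61 ± 0.08, adjusted p = 0.000499). Cyp51 was at 43.9 and 48.2 RPKM in DP KO and 31.6 and 29.7 RPKM in DP control libraries. The libraries again did not overlap, and the mean was 1.502-fold higher (0.57 ± 0.07, adjusted p = 0.000310). Fdps was at 176.7 and 192.4 RPKM in DP KO and 127.7 and 126.2 RPKM in DP control libraries, 1.45-fold higher without overlap (0.54 ± 0.08, adjusted p = 0.00121). The squalene and methylsterol steps gave closely similar sizes, 0.46 ± 0.07 for Fdft1, 0.45 ± 0.07 for Sqle and 0.46 ± 0.08 for Msmo1, the methylsterol oxidase. Ebp was at 36.4 and 40.3 RPKM in DP KO and 29.4 and 29.4 RPKM in DP control libraries, apart by a log2 change of 0.37 ± 0.07 (adjusted p = 0.00278).

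Differences of the other sterol enzymes were smaller or less certain. Hmgcs1 (0.33 ± 0.08, adjusted p = 0.0151), the isomerase gene Idi1 (0.41 ± 0.13, adjusted p = 0.0414), the thiolase gene Acat2 (0.29 ± 0.09, adjusted p = 0.0366) and the dehydrogenase gene Nsdhl (0.24 ± 0.07, adjusted p = 0.0336) were higher in KO. Mvk (0.29 ± 0.12), Lss (0.27 ± 0.09) and Pmvk (0.17 ± 0.06) did not pass the test (adjusted p = 0.109, 0.0546 and 0.0790). Hsd17b7 (0.08 ± 0.13), Sc5d (0.03 ± 0.08), Dhcr7 (-0.01 ± 0.07) and Tm7sf2 (-0.10 ± 0.09) were not called.

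Scd1 was at 9.33 and 12.3 RPKM in DP KO and 7.84 and 6.28 RPKM in DP control libraries. Both KO values exceeded both control values (0.55 ± 0.14, adjusted p = 0.0182). Acaca (0.33 ± 0.11, adjusted p = 0.0458) and Fasn (0.31 ± 0.08, adjusted p = 0.0245) were also higher, whereas Scd2, a close relative of Scd1, was at 279.9 and 283.4 RPKM in DP KO and 266.5 and 269.0 RPKM in DP control libraries and did not pass the test (adjusted p = 0.397). Stard4 (0.26 ± 0.08) and Npc2 (0.24 ± 0.06) were higher in KO. Soat1 was at 38.5 and 33.9 RPKM in DP KO and 38.8 and 38.2 RPKM in DP control libraries, with overlap and no call (adjusted p = 0.457).

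The SREBP genes themselves did not pass the test between genotypes. Srebf1 averaged 56.4 ± 4.36 RPKM in DP KO and 59.2 ± 4.81 RPKM in DP control libraries (SD, n = 2 each), and Srebf2 averaged 67.1 ± 6.36 and 65.4 ± 1.00 RPKM in the same order (adjusted p = 0.646 and 0.826). Insig2 was at 17.4 and 16.9 RPKM in DP KO and 20.3 and 19.7 RPKM in DP control libraries. It did not pass the test (-0.21 ± 0.10, adjusted p = 0.171).

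Mylip, an LXR target, was the 1 member lower in DP KO. It was at 6.25 and 6.35 RPKM in DP KO and 9.84 and 8.07 RPKM in DP control libraries, lower without overlap (-0.44 ± 0.12, adjusted p = 0.0218). Abca1, left out of the counts, was at 0.362 and 0.328 RPKM in DP KO and 1.018 and 1.10 RPKM in DP control libraries, from 43, 32, 110 and 138 reads. Both KO values were below both control values (-0.61 ± 0.16). Since it passed the filter through DP control alone, its call in limma is given with no filter (adjusted p = 0.00290), and the gene was not called with a pseudocount of 0.1 (adjusted p = 0.0693) or without DP KO library 2 (adjusted p = 0.0948). The third LXR target, Abcg1, was at 19.3 and 20.1 RPKM in DP KO and 21.8 and 20.5 RPKM in DP control libraries and did not pass the test (-0.10 ± 0.09, adjusted p = 0.452).

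**Figure D4:**
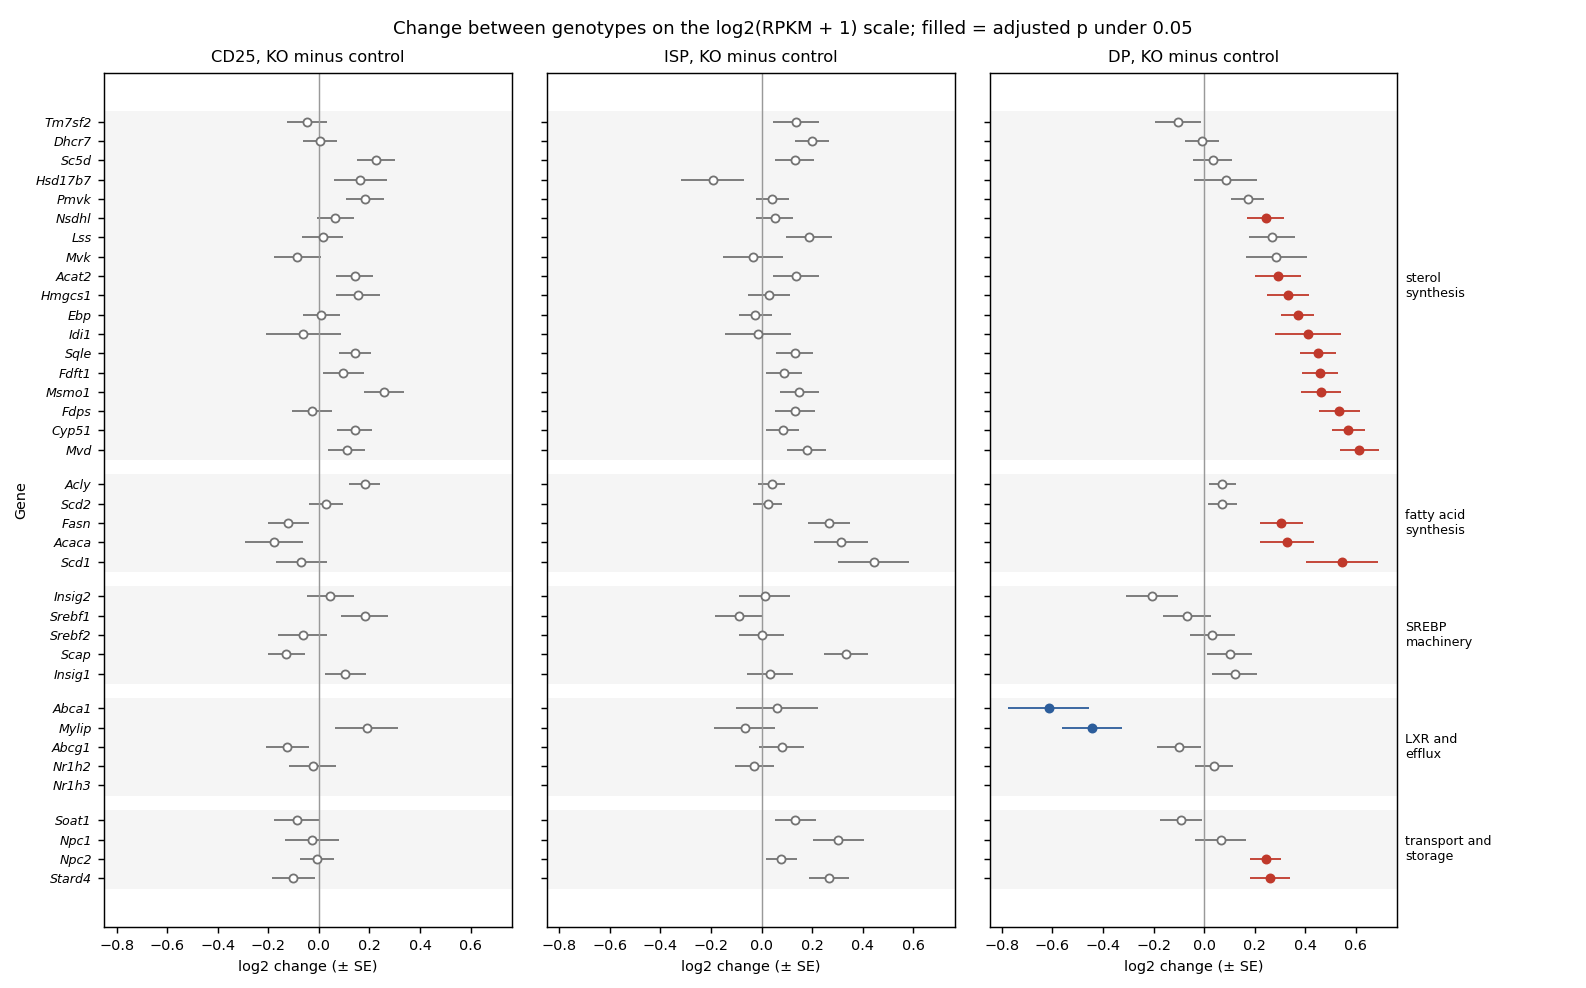
Log2 change ± SE of KO minus control for each tested member in CD25, ISP and DP cells, on the log2(RPKM + 1) scale and a shared axis, grouped by role. Filled points have an adjusted p under 0.05, red higher and blue lower in KO. Filled points occur in the DP panel only, where the highest is Mvd at 0.61 and the lowest Abca1 at -0.61, a gene that passed the filter through DP control alone.

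Part of these calls depended on single libraries. The number of members higher in DP KO was 8 without DP KO library 2, 9 without DP control library 1 and 7 without DP control library 2, and Fdft1, Sqle, Fdps, Cyp51, Msmo1, Mvd and Ebp stayed called whichever library was left out. Mylip was not called without DP KO library 1, DP KO library 2 or DP control library 1 (adjusted p = 0.0618, 0.0956 and 0.177). Rescaled to a common sum, where the median of all genes was -0.09 and 36.1% of all calls were higher against 64.5% on the deposited scale, the same 7 enzymes and Scd1 remained higher and Mylip remained lower. Grouped by library name, 7 members were higher and 19 lower in the libraries named DP KO than in those named DP control. By title, the libraries named DP KO are DP and those named DP control are ISP.

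Other gene groups moved with genotype in DP. The 8 myeloid markers summed to 55.9 and 88.9 RPKM in DP KO and 21.5 and 15.7 RPKM in DP control libraries. Most of the sum in DP KO came from Lyz2, at 43.8 and 65.2 RPKM in DP KO and 13.0 and 5.50 RPKM in DP control. Of the 7 myeloid markers tested 5 were higher in DP KO and none lower. The myeloid sum was higher in KO in the other populations too. It was 48.2 and 62.8 RPKM in ISP KO and 20.3 and 21.3 RPKM in ISP control libraries. In CD25 it was 41.5 and 45.4 RPKM in KO and 31.6 and 27.5 RPKM in control libraries. In ISP 1 of 7 markers tested was called higher in KO, and in CD25 0 of 6. Csf1r was at 0.757 and 2.23 RPKM in DP KO and 0.343 and 0.317 RPKM in DP control. Adgre1 was at 0.718 and 1.62 RPKM, against 0.351 and 0.0757 RPKM in DP control. For Ctss the values were 2.85 and 9.74 RPKM against 1.61 and 1.75 RPKM, and for Fcgr3 1.66 and 2.72 RPKM against 0.913 and 1.03 RPKM. Cd68 (3.87 and 5.82 against 3.28 and 4.66 RPKM) and Itgam (2.06 and 1.42 against 1.89 and 2.29 RPKM) overlapped between genotypes. Mpeg1 stayed under 1 RPKM in every library. The 9 S phase genes summed to 1732.8 and 1922.3 RPKM in DP KO and 1284.5 and 1310.2 RPKM in DP control libraries, and 9 of 9 were higher in KO. The 6 natural killer and innate lymphoid markers summed to 176.7 and 217.0 RPKM in DP KO and 126.0 and 111.7 RPKM in DP control, with 2 of 6 higher. The thymic epithelium list summed to 20.7 and 21.9 RPKM in DP KO and 15.96 and 16.54 RPKM in DP control. The mesenchyme and endothelium list summed to 35.2 and 32.8 RPKM in DP KO and 42.8 and 44.2 RPKM in DP control. Of each list 1 gene passed the filter, Epcam of the former and Pecam1 of the latter, and these carry most of the sums. Of the 6 genes listed as a check of the labels (Il2ra, Ptcra, Cd8a, Cd8b1, Cd4 and Bcl6), 1 was higher in DP KO, 2 were lower and 3 were not called. Cd8b1 was at 2274.2 and 2042.3 RPKM in DP KO and 2505.8 and 2495.0 RPKM in DP control. The part of these groups in the sterol result was not tested.

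In ISP and CD25 cells no member was called between genotypes. In ISP this was 0 of 36 in limma, where 0.354% of all genes were called (0.257% higher and 0.0973% lower). An unadjusted p under 0.05 was reached by 8 members and by 1494 of all 11303 genes. The 8 members were Mvd, Dhcr7, Acaca, Fasn, Scd1, Scap, Npc1 and Stard4, all higher in KO. A count-based limma-voom fit on the recovered reads called Acaca and Scap higher, among 133 genes higher and 48 lower. In CD25 0 of 35 members were called in limma and in limma-voom. Of all genes limma called 0.0188% (0.00940% higher and 0.00940% lower), and limma-voom called 9 genes higher and 5 lower. There 4 members (Pmvk, Msmo1, Sc5d and Acly, all higher in KO) and 972 of all 10636 genes had an unadjusted p under 0.05. Cyp51 was at 71.7 and 75.4 RPKM in ISP KO and 68.3 and 70.4 RPKM in ISP control libraries, and at 59.9 and 63.3 RPKM in CD25 KO and 56.7 and 54.7 RPKM in CD25 control libraries. The difference of Cyp51 did not pass the test in either population.

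Whether the genotype difference changed from ISP to DP was tested directly. It was larger in DP for 3 of 35 members, Cyp51 (0.49 ± 0.09, adjusted p = 0.0164), Ebp (0.39 ± 0.09, adjusted p = 0.0370) and Mvd (0.44 ± 0.11, adjusted p = 0.0460), and smaller for none, where 3.67% of all genes were called higher, 0.522% lower and 4.19% in either direction. Seen as the step from ISP to DP within each genotype, the mean of Cyp51 was 1.60-fold lower in DP than in ISP for KO and 2.26-fold lower for control. Mvd was 1.22-fold lower in DP for KO and 1.67-fold lower for control, and Ebp averaged 38.3 RPKM in DP and 37.7 RPKM in ISP for KO, against 29.4 and 38.4 RPKM for control. Fdps (0.40 ± 0.11, adjusted p = 0.0677) and Fdft1 (0.37 ± 0.10, adjusted p = 0.0635) had estimates of like size without passing the test. On the common-sum scale 71.3% of all calls were higher, against 87.6% on the deposited scale, and no member was called. Of the S phase genes, 8 of 9 were higher in this test. For the change in the genotype difference from CD25 to ISP no member and none of the 11303 genes was called in limma, with 1105 genes, 6 of them members, at an unadjusted p under 0.05, and limma-voom called 12 higher and 7 lower, none of them members.

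Other genes of the pathway, 41 listed by function, of which 35 could be tested, were set beside the 37. In DP against ISP, 18 of the 35 were lower (35.0% of all genes) and 12 higher (35.6% of all genes), the higher share being near that of all genes. Fabp5, a fatty acid carrier (-1.22 ± 0.05), Slc25a1, the mitochondrial citrate carrier that supplies lipid synthesis (-1.06 ± 0.05), and Scarb1, a receptor for high density lipoprotein (-1.22 ± 0.07), were lower. Lipa, the lysosomal lipase, was at 116.4 and 110.7 RPKM in DP KO and 145.2 and 124.4 RPKM in DP control libraries, against 33.3 to 41.0 RPKM in ISP libraries. It was higher without overlap (1.72 ± 0.07, adjusted p = 1.27e-09), as was the sterol transporter gene Gramd1a (1.42 ± 0.08).

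Between genotypes in DP, 7 of the 35 were higher and 3 lower in KO, against 14.1% and 7.78% of all genes. Tmem97, a sterol-responsive membrane protein gene, was at 56.0 and 66.4 RPKM in DP KO and 30.0 and 28.3 RPKM in DP control libraries. KO was 2.10-fold higher without overlap (1.04 ± 0.10, adjusted p = 0.000165), and Fabp5 (0.74 ± 0.06) and the fatty acid desaturase gene Fads2 (0.51 ± 0.07) were higher too. Acss2, which makes acetyl-CoA from acetate, was at 24.4 and 22.2 RPKM in DP KO and 36.7 and 33.3 RPKM in DP control libraries, lower without overlap (-0.57 ± 0.09, adjusted p = 0.00140). Gramd1a was lower as well (-0.59 ± 0.11, adjusted p = 0.00293).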

How the data were processed

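RNA sequencing libraries of 12 sorted thymocyte samples were analysed from 1 deposited table. The authors deposited RPKM values per gene. No header or label names that unit, which was read from the values. BWA and GRCm38 are named in the submitters' processing notes, while the counter, the annotation and any use of strand are not stated in those notes or the labels. All 169595 values above 0 (100%) were whole multiples of 1 read within 0.02 reads. The deposited scale already equalised median-of-ratios factors between libraries. A fold change of a low gene is understated on the log2(RPKM + 1) scale. The groups followed the labels, with 2 libraries each.

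Genes that reached 1 RPKM in 2 or more libraries were tested with limma 3.58.1 (R 4.3.3, intensity trend) with Benjamini-Hochberg adjustment over all genes tested, at 0.05. All 12 libraries entered 1 fit of 6 groups with 11303 genes and 6 residual degrees of freedom, except that genotypes in CD25 were fitted on 4 libraries with 10636 genes and 2 degrees. Gene positions are from GENCODE M21 and upstream sequences from RefSeq. The members and lists were chosen with earlier results of these data known. All 37 members could be named, and values per library are given for those with the smallest p in each role class. Other genes of the pathway are named by smallest p, up to 5 per comparison. Alternatives were another pseudocount, 2 other filters, a common-sum (TPM) scale, a replicate block, other sets of libraries, groups by library name, omission of each library, and limma-voom on recovered reads, the last chosen after seeing the data. That fit called 1414 genes higher and 1033 lower in DP KO. The procedure was tested on simulated data. The SE from limma and the SD both give the spread among these libraries, part of which may be technical. Python 3.11.15, pandas 2.3.3, numpy 2.4.6 and matplotlib 3.10.9 made tables and plots.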

Additional observations from a re-analysis of the deposited data

Results flagged for a closer look

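The difference between genotypes was larger in DP than in ISP for 3 sterol enzymes, by a direct test of that difference in limma over all 11303 genes, and each is listed for that reason. The estimate was 0.4875 on the log2 scale for Cyp51 (SE 0.09, adjusted p = 0.0164), 0.4351 for Mvd (SE 0.11, adjusted p = 0.0460) and 0.3933 for Ebp (SE 0.09, adjusted p = 0.0370). In DP both KO libraries were above both control libraries for each gene. In ISP the KO minus control difference was 0.08 ± 0.07 for Cyp51, 0.18 ± 0.08 for Mvd and -0.02 ± 0.07 for Ebp, and none passed the test. None of the 3 calls held under every omission of a library, and none held on the common-sum scale. The 9 S phase genes moved the same way, 8 of them past the threshold, and their part in these values was not tested.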

How the results depend on the processing

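Counts of members here include Abca1, which was not tested without either DP control library. Groups by sequencing library name changed most results. Each anti-CD3 group by name joins a library titled KO and a library titled control from the same titled population. KO against control by name therefore sets libraries titled DP against libraries titled ISP. DP and ISP by name each hold libraries of both titles. They gave 8 members higher and 14 lower in ISP against CD25, 0 and 0 in DP against ISP, 8 higher in DP against CD25, 6 higher and 19 lower in KO against control in ISP, 7 and 19 in DP, 0 for the genotype difference in DP minus ISP, and 4 higher (Abcg1, Insig2, Npc1 and Soat1) and 15 lower for that in ISP minus CD25. Signs turned under that grouping. In ISP against CD25 the log2 changes became -0.21 (Acat2), -0.16 (Fdft1), -0.15 (Cyp51), -0.11 (Acaca) and -0.32 (Fasn). In DP against ISP they became 0.0124 (Mvd), 0.0288 (Fdft1), 0.0945 (Tm7sf2), 0.0410 (Hsd17b7), 0.0386 (Dhcr7), 0.0148 (Acly), 0.0941 (Fasn), 0.0166 (Scd1), 0.12 (Scap), -0.0123 (Nr1h2) and -0.0590 (Npc2), and in DP against CD25 -0.34 (Abcg1) and -0.19 (Npc1). For KO against control in DP they became -0.85 (Acat2), -1.05 (Hmgcs1), -0.45 (Mvk), -0.50 (Mvd), -0.82 (Idi1), -0.95 (Fdps), -0.87 (Fdft1), -0.81 (Sqle), -1.12 (Lss), -0.89 (Cyp51), -0.95 (Msmo1), -0.66 (Nsdhl), -0.74 (Hsd17b7), -0.21 (Ebp), -0.64 (Acaca), -1.24 (Fasn), -0.51 (Scd1), 0.53 (Insig2), 0.54 (Abca1), 1.05 (Abcg1), 0.93 (Mylip), -0.39 (Stard4) and 1.06 (Soat1), and for the genotype difference in DP minus ISP -0.0011 (Mvd) and -0.0722 (Ebp). The common-sum scale gave 14 members lower in ISP against CD25, 8 higher in DP KO and 0 for the genotype difference in DP minus ISP. In DP against ISP that scale turned Pmvk (0.17), Sc5d (0.0390) and Scd2 (0.16), and Pmvk and Scd2 were called higher. The limma-voom fit gave 2 members higher in ISP KO, among 133 genes. It gave 1 lower (Abca1) in the genotype difference of DP minus ISP, among 145 genes. Members lower in DP KO numbered 1 with a pseudocount of 0.1, without a filter, with a filter of 5 RPKM and with only the groups compared in the fit. In the genotype difference of DP minus ISP, no filter gave 1 higher (Cyp51) and 1 lower (Abca1), the filter of 5 RPKM 5 higher, and only the groups compared 1 higher (Cyp51). The cause was not tested.

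Leaving out each library in turn gave 22 to 23 members lower and 7 to 9 higher in DP against ISP, 13 to 17 higher and 7 to 8 lower in ISP against CD25, 10 to 14 higher and 19 lower in DP against CD25, and 10 to 12 higher and 19 to 20 lower in all anti-CD3 libraries against CD25. It gave 7 to 15 higher and 0 to 2 lower in DP KO, 0 to 5 higher in the genotype difference of DP minus ISP, and 0 elsewhere. Where 1 library of a group is left, it is assumed to vary like the other groups. Replicate numbers share only a number in the labels, and the correlations of same-numbered deviations ran from -0.07 to 0.12. With the replicate block 14 members were higher and 2 lower in DP KO, and 16 higher and 8 lower in ISP against CD25. The genotype difference of DP minus ISP had 3 higher in either fit, with Fdps in place of Mvd under the block. The block changed no other count of members called. With 2 libraries a group, and 2 to 138 reads for Nr1h3 and Abca1, small differences of these low genes were not detectable.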
